A study of Mus musculus with 3 samples.

Results

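The 9 genes described here make, carry, sense and remove retinoic acid: the aldehyde dehydrogenases Aldh1a1, Aldh1a2 and Aldh1a3, the binding proteins Crabp1, Crabp2 and Rbp4, the degrading enzyme Cyp26b1, and the nuclear receptors Rara and Rarg. They were chosen by name and found on the array through the RefSeq transcript that the scanner files give for each probe, which left 10 probes, with 2 for Rara and 1 for each of the other 8 genes. They are 9 of the 19738 mouse genes with a named probe. Expression was measured in CD11b+Gr1−F4/80+ skin resident macrophages, which were sorted from the backskin of CD1 mice at postnatal day 42 (P42), P55 and P69, that is at early, mid and late telogen, the resting phase of the hair follicle. The labels name no transgene and no treatment. The methods describe female animals, RNA of 3 littermates pooled per point, and amplification of very small amounts of RNA before labeling with Cy3 or Cy5 and hybridization to Agilent arrays. The series holds 1 array per day, of which the green signal was used here. The labels give the early point as day 42 and the text of the study as day 44.

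Retinoic acid is made from vitamin A, or retinol, in a pair of oxidation steps. Alcohol and short-chain dehydrogenases turn retinol into retinaldehyde, and the ALDH1A enzymes turn retinaldehyde into retinoic acid, a step that cannot be reversed. In blood retinol travels on RBP4. In the cell retinoic acid is held by CRABP1, which is linked to its degradation, and by CRABP2, which is known for carrying it to the nucleus. There it binds the retinoic acid receptors, which sit on DNA as partners of the retinoid X receptors, hold co-repressors without the ligand and recruit co-activators with it. CYP26 enzymes oxidize retinoic acid and end its action. In skin, retinoids are known for acting on keratinocyte differentiation, sebaceous glands and the hair cycle, and certain dendritic cells and macrophages of other tissues are known to make retinoic acid through ALDH1A2.

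Each day is represented by 1 array, so no value has a replicate, no test between days was possible and no p-value is given. Levels are given as log2 signal of a probe over the 75th percentile of its array, and a change is a difference of 2 such levels. Each of the 10 probes has a single spot, so the error between spots was taken from other probes with repeated spots on the same array, with a median SD of 0.126 at P42, 0.108 at P55 and 0.119 at P69 on the log2 scale. For a difference between 2 arrays this comes to 0.17 from P42 to either later array and to 0.16 between the later arrays. The scanner software gives an error of 0.14 to 0.27 (log2) for the single spots of the 9 genes. Neither holds anything of the spread between mice, sorts or amplifications. Between 59.7 and 71.4% of the 55618 probes were well above background by the call of the scanner software, and no spot was saturated.

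The 2 later arrays are assigned to days in opposite ways by the deposited files. The P55 column of the log2 table of the authors matches the scanner array filed as P69 (99.9% of 36380 probes within 0.05 of the median offset), and its P69 column matches the array filed as P55 (99.8%). Against the array of its own label, each column stayed within 0.05 for 3.08 and 3.07% of the probes. The values below follow the scanner files, and the later arrays are therefore called the array filed as P55 and the array filed as P69. Where the other assignment holds, their values change places. Comparisons of the P42 array with both later arrays together do not depend on it.

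The identity of the sorted cells was checked with marker genes. All 15 macrophage markers found on the array were well above background on all 3 arrays, and Adgre1, which encodes F4/80, had levels of 4.82 at P42, 5.52 on the array filed as P55 and 5.15 on the array filed as P69. Itgam, which encodes CD11b, had levels of 8.95, 8.73 and 7.85, in the same order. The linear levels of the macrophage markers summed to 1111 at P42, 1096 on the array filed as P55 and 687 on the array filed as P69, in multiples of the 75th percentile. Without the brightest gene (Itgam) these sums were 617, 673 and 456. The median changes of the list to the arrays filed as P69 and P55 were −0.42 and −0.22, but 0.10 and 0.33 when arrays were scaled to their median. Other cell types were also represented, and the keratinocyte list moved most. All 15 of its genes were well above background on every array, 12 and 13 of them were at least 2-fold higher relative to P42 (arrays filed as P69 and P55), and the median changes were 3.09 and 3.30. The sum of their levels, without the brightest probe (Trp63), was 17.8 at P42, 149 on the array filed as P55 and 117 on the array filed as P69, and with it 279, 412 and 280. Of 9 dendritic and Langerhans cell markers, 4 exceeded P42 by 2-fold or more on each later array, with a sum of 131 at P42, 290 on the array filed as P55 and 189 on the array filed as P69. Others went the other way to the array filed as P69, with −1.69 for Ccr7, −0.925 for Flt3, −0.91 for Xcr1 and −0.47 for H2-DMb2. Of the 8 with a value, 1 was at least 2-fold lower on that array and 0 on the array filed as P55. Langerhans cells also carry CD11b and F4/80, and their marker Cd207 had levels of 3.78 at P42, 6.76 on the array filed as P55 and 5.90 on the array filed as P69. The sum over 10 fibroblast markers was 92.3 at P42, 43.9 on the array filed as P55 and 47.6 on the array filed as P69. Median changes to the arrays filed as P69 and P55 were 1.88 and 1.59 for 5 melanocyte markers, 1.01 and 0.71 for 5 T cell markers and 1.05 and 0.42 for 6 pericyte and muscle markers. Corin, Sox2 and Hhip of 10 dermal papilla markers, Lep of 8 adipocyte markers and Awat2 of 8 sebocyte markers were well above background on no array. Others of these lists were detected at P42 and on the arrays filed as P55 and P69. The numbers were 7, 7 and 6 for dermal papilla, 6, 5 and 5 for adipocytes, and 5, 6 and 7 for sebocytes. Their median changes to the arrays filed as P69 and P55 were 0.31 and 0.70, −0.09 and 0.39, and 0.77 and 0.87. The part of these cells in the results below was not tested, and on RNA of a whole sorted pool, fewer cells of a type and less RNA per cell cannot be told apart.

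All 9 genes were well above background on all 3 arrays, as were 13081 genes in all (66.3%). Higher on both later arrays than at P42 were Aldh1a2, Rara and Rarg, each by at least 2-fold, and lower on both by at least 2-fold were Crabp1, Crabp2 and Cyp26b1. These 6 kept their direction under every scaling of the arrays tried. Rbp4 was lower on both arrays by less than 2-fold, and Aldh1a1 and Aldh1a3 differed between the later arrays. From P42 to the array filed as P69, 3 genes were at least 2-fold higher, against 22.2% of the 16164 genes compared, and 3 were at least 2-fold lower, against 20.7%. From P42 to the array filed as P55, 4 genes were higher (Aldh1a3 in addition), against 29.2% of 15842 genes, and 4 were lower (Aldh1a1 in addition), against 16.9%. With both directions together, 6 and 8 of the 9 genes passed 2-fold, but 9 genes are few and nothing particular to them is read from these counts. The median change of the 9 genes was −0.39 on the array filed as P69 and −0.64 on the array filed as P55, beside 0.15 and 0.23 over all genes compared. The change of 7 of the 9 genes from P42 was more than 2 times both error estimates on either later array. Aldh1a1 and Aldh1a3 exceeded them on the array filed as P55, but on the array filed as P69 their changes of −0.39 each were only 1.90 and 1.30 times the error that the scanner software gives for the difference (0.21 and 0.30).

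**Figure D1:**
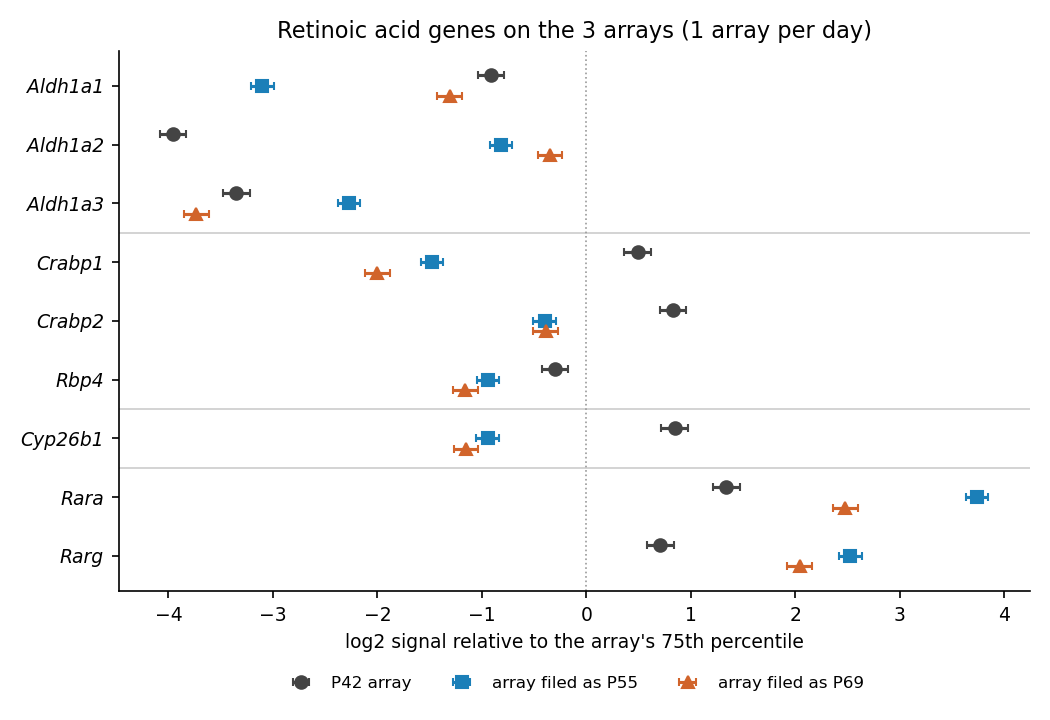
Levels of the 9 genes on the 3 arrays, as log2 signal over the 75th percentile of the array (x axis), with 1 point per array and, as bars, the SD of repeated spots on that array. Grey lines part synthesis, binding, breakdown and receptor genes. Aldh1a2 sits at −3.95 on the P42 array and at −0.82 and −0.35 on the later arrays, while Crabp1 and Cyp26b1 sit above 0 only on the P42 array, and levels of different genes are not comparable because each is read by its own probe.

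Among the synthesis genes, Aldh1a2 showed the largest difference of the 9. Its enzyme, also known as RALDH2, makes most of the retinoic acid of the early embryo. The gene lies on chromosome 9 (chr9:71215789-71296243, GRCm38.p6). Its signal was 26.7 at P42, 282 on the array filed as P55 and 728 on the array filed as P69, and its levels were −3.95, −0.82 and −0.35. The P42 value is thus the lowest by far, and both later values lie close together. The change from P42 was 3.61 on the log2 scale (12.2-fold) to the array filed as P69 and 3.14 (8.81-fold) to the array filed as P55. Of 14160 genes measured on both arrays of the first comparison, 38 were raised more, and 178 of 13247 in the second. At 10-fold it was the only one of the 9 genes higher on the array filed as P69, against 0.668% of all genes. At 4-fold it was again the only gene higher on that array, against 5.08% of all genes, and on the array filed as P55 it was joined by Rara, against 7.39%. The P42 signal was only 1.40 times the lowest signal called well above background on that array, compared with 9.35 and 25.3 times on the later arrays, so that its fold depends on the background correction. With normexp correction the change was 1.97 and 1.71 on the arrays filed as P69 and P55, below 4-fold on both. It was then not the largest of the 9. Crabp1 changed more on the array filed as P69 (−2.23), and Rara (2.33) and Rarg (1.77) did on the array filed as P55.

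Aldh1a1 encodes an enzyme of many adult tissues that also oxidizes other aldehydes (chr19:20492583-20643463). Its signal was 220 at P42, 57.8 on the array filed as P55 and 375 on the array filed as P69, and its levels were −0.91, −3.10 and −1.31. A single array stood apart, the one filed as P55, where the gene was 4.56-fold lower than at P42 (log2 −2.19). It was the only gene of the 9 at least 4-fold lower there, against 3.41% of all genes, and 210 of 13247 genes measured on both arrays fell further. The array filed as P69 differed from P42 by −0.39, and this sign turned when arrays were scaled to their median (0.13) or not scaled (0.77). A close copy, Aldh1a7, was not well above background at P42 and had levels of −3.18 and −3.30 on the arrays filed as P55 and P69, with bounds of 1.27 and 1.14 (log2) above P42 that fell to 0.54 and 0.14 under another processing. Whether the probe of either gene also reads the other was not tested.

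Aldh1a3, the enzyme of the nasal and eye primordia in the embryo, lies on chromosome 7 (chr7:66390892-66427477). It was dim on every array, at 2.13 to 3.41 times the lowest signal called well above background. Its signal was 40.6 at P42, 103 on the array filed as P55 and 69.6 on the array filed as P69, with levels of −3.35, −2.27 and −3.73. The highest level was that of the array filed as P55, 1.08 (2.11-fold) above P42. The change to the array filed as P69 was −0.39, with the opposite sign under quantile normalization (0.39), the median (0.13) or no scaling (0.78). The 3 enzymes thus had 3 different orders of days, and Aldh1a2 changed more than Aldh1a1 by 4.0 and 5.33 and more than Aldh1a3 by 3.99 and 2.06 on the arrays filed as P69 and P55.

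Both genes for cellular retinoic acid binding proteins were lower on the later arrays. Crabp1 (chr9:54764748-54773110) had a signal of 581 at P42, 178 on the array filed as P55 and 232 on the array filed as P69. Its levels were 0.49, −1.48 and −2.0, so both later arrays lay below the 75th percentile and P42 above it. The change was −2.49 (5.62-fold lower) to the array filed as P69 and −1.97 (3.91-fold lower) to the array filed as P55. On the former it was the only gene of the 9 at least 4-fold lower, against 4.64% of all genes. Further decreases were measured for 154 of 14160 and 314 of 13247 genes.

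Crabp2 (chr3:87948693-87953372), itself a known target of retinoic acid, had a signal of 735 at P42, 376 on the array filed as P55 and 707 on the array filed as P69. Because the arrays differed in brightness, with a 75th percentile of 414, 496 and 927, these signals correspond to levels of 0.83, −0.40 and −0.39. The later arrays were equal within the spot error, with changes of −1.23 (2.34-fold lower) and −1.22 (2.33-fold lower) to the arrays filed as P55 and P69. Without scaling the change to the array filed as P69 was only −0.06. The decrease was smaller than that of Crabp1 by 1.27 and 0.74 on the arrays filed as P69 and P55.

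Rbp4, the gene of the retinol carrier of blood (chr19:38116620-38125321), had a signal of 336 at P42, 258 on the array filed as P55 and 415 on the array filed as P69, and levels of −0.30, −0.94 and −1.16. Its changes of −0.64 and −0.86 to the arrays filed as P55 and P69 were below 2-fold, and the latter turned to 0.31 without scaling. The fibroblast markers, whose sum was also higher at P42 than on the later arrays, had median changes of −0.81 on the array filed as P55 and −0.14 on the array filed as P69. The latter sign turned under quantile normalization (0.10), the median (0.38) or no scaling (1.02). Other lists also had their highest sum at P42. Endothelial markers summed to 20.5 at P42, 12.0 on the array filed as P55 and 18.5 on the array filed as P69. In the same order, mast cell markers summed to 3.53, 1.65 and 1.20, and neutrophil markers to 82.5, 52.2 and 42.6. Without their brightest genes, Tpsb2 and Csf3r, the latter sums were 0.35, 0.23 and 0.44, and 0.31, 0.38 and 0.32. The part of fibroblasts and of these cells in the decreases of Crabp1, Crabp2 and Rbp4 was not tested.

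Cyp26b1, the gene of a cytochrome P450 that degrades retinoic acid in skin and other tissues (chr6:84571414-84593908), had a signal of 744 at P42, 258 on the array filed as P55 and 417 on the array filed as P69. The levels were 0.84, −0.95 and −1.15, with P42 far above the other two. The change was −2.0 (3.99-fold lower) to the array filed as P69 and −1.79 (3.46-fold lower) to the array filed as P55. Larger decreases were measured for 390 of 14160 and 465 of 13247 genes. Cyp26b1 and Aldh1a2 moved apart. The change of Aldh1a2 exceeded that of Cyp26b1 by 5.60 on the array filed as P69 (48.6-fold) and by 4.93 on the array filed as P55 (30.5-fold), and this difference cannot be altered by a scaling factor of an array. It was 6.40 and 5.75 under quantile normalization and 3.69 and 3.16 with normexp, and it rests on the dim P42 signal of Aldh1a2.

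**Figure D2:**
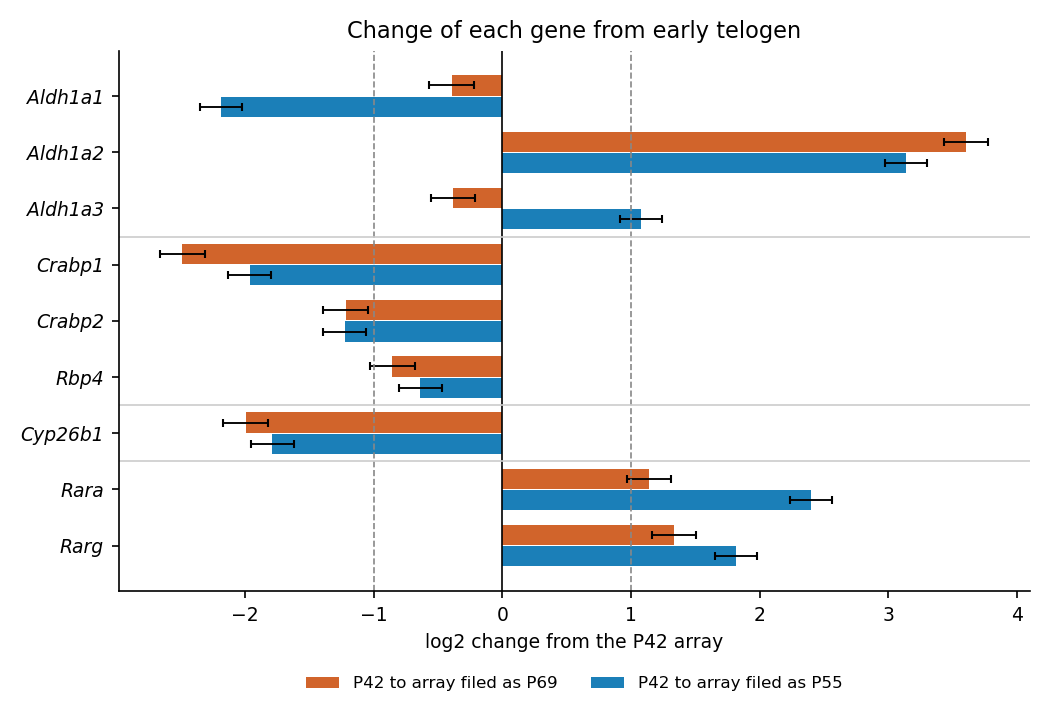
Change of each gene from the P42 array to each later array, as a log2 difference (x axis), with bars for the change and error lines for the SD of a difference between repeated spots. Dashed lines mark 2-fold. Aldh1a2, Rara and Rarg extend to the right on both arrays and Crabp1, Crabp2 and Cyp26b1 to the left under every scaling, while the short bars of Aldh1a1 and Aldh1a3 on the array filed as P69 (−0.39 each) turn sign under some scalings, as does that of Rbp4 without scaling.

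The 2 receptors on the list were higher on the later arrays. Rara encodes RARα, which is known for its role in myeloid cells (chr11:98927800-98974942). Its brighter probe had a signal of 1048 at P42, 6625 on the array filed as P55 and 5162 on the array filed as P69, and its levels were 1.34, 3.74 and 2.48. The other probe gave levels of 1.08, 3.57 and 2.54, and thus the same order of arrays. The change of the brighter probe was 2.40 (5.28-fold) to the array filed as P55 and 1.14 (2.20-fold) to the array filed as P69, and that of the other probe 2.49 and 1.45. Larger increases to the array filed as P55 were measured for 504 of 13247 genes, and to the array filed as P69 for 2559 of 14160.

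Rarg encodes RARγ, the main retinoic acid receptor of the epidermis (chr15:102234938-102257522). Its signal was 676 at P42, 2856 on the array filed as P55 and 3815 on the array filed as P69, with levels of 0.71, 2.53 and 2.04. Both later arrays lay above P42, by 1.82 (3.52-fold) and 1.33 (2.52-fold). Increases larger than these were common, with 1360 of 13247 and 1903 of 14160 genes. The changes of Rara and Rarg differed by 0.58 on the array filed as P55 and by −0.20 on the array filed as P69, whereas the gap between receptors and Crabp1 was 4.37 and 3.78 for Rara and Rarg on the former and 3.63 and 3.82 on the latter. Markers of keratinocytes and of dendritic and Langerhans cells had higher medians on the same arrays as the receptors and Aldh1a2, with dendritic markers going both ways. Sums over the keratinocyte list were 279 at P42, 412 on the array filed as P55 and 280 on the array filed as P69. For dendritic and Langerhans cells they were 131, 290 and 189, in the same order. Without the brightest gene of each list (Trp63 and H2-DMb2) the sums were 17.8, 149 and 117, and 31.7, 175 and 118. Their part in the increases was not tested.

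Retinoic acid receptors are known to bind pairs of a short half-site, and several genes of the pathway are known to be controlled by retinoic acid itself, so the promoters were searched for these letters. The RefSeq table (GRCm38.p6) holds 13 windows of 300 bases (250 before to 50 after a start site) for 7 of the 9 genes. Half-sites were AGGTCA or AGTTCA or GGGTCA or GGTTCA on either strand, and a direct repeat was a pair of them in the same orientation with 1 or 2 or 5 bases between. No window of the 7 genes held a direct repeat, as 0.588% of all 32851 windows did. A single half-site or more was found in 43.7% of all windows and in 5 of these 13. A Rara window held 4, as many as or more than all but a few windows (0.581% held 4 or more). The stretches with the half-sites of 4 windows are shown to compare their letters, with half-sites in capitals, 5′ to 3′ on the strand of the gene, where TGACCT and the like are half-sites of the opposite strand.
Rara, chr11:98939461-98939645, + strand: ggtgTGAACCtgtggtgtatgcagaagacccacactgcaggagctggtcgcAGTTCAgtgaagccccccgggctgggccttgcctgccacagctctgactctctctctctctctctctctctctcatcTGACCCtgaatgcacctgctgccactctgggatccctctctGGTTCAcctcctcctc
Rarg, chr15:102257732-102257757, − strand: cccaggacacTGACCTctgccagctc
Aldh1a1, chr19:20601909-20601934, + strand: gatatgcaaaTGACCCttagtgcatg
Rbp4, chr19:38125359-38125384, − strand: gaataaatatTGACCCaaacagcacc
The half-sites of the Rara window start at −246, −199, −122 and −81 from its start site and alternate in strand. The window lies inside the gene, since other Rara transcripts start upstream of it. Rarg has its half-site at −225, Aldh1a1 at −49 and Rbp4 at −53, and another Rara window (start site 98964872) has a half-site at 33. The windows of Aldh1a2, Crabp1 and Cyp26b1 held none, so half-sites in these windows were found both for genes that were higher (Rara, Rarg) and for a gene that was lower on the array filed as P55 (Aldh1a1). The letters do not show that a receptor binds there.

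The later arrays were also compared with each other, and 3 genes differed by 2-fold or more between the later arrays. From the array filed as P55 to that filed as P69, Aldh1a1 was at least 2-fold higher (1.80 on the log2 scale, 3.47-fold), against 7.84% of 14844 genes, and Aldh1a3 (−1.46) and Rara (−1.26) were at least 2-fold lower, against 11.3%. With the assignment of the log2 table these 3 changes run the other way in time. The change of Aldh1a1 was exceeded by 137 of 13541 genes. The second Rara probe gave −1.04. The changes of the other 6 genes lay between −0.52 (Crabp1) and 0.47 (Aldh1a2), and those of Crabp2 (0.01), Rbp4 (−0.22) and Cyp26b1 (−0.21) were within 2 times the spot error. The sign for Crabp2 turned under quantile, median and normexp processing, and the signs for Crabp1, Rbp4, Cyp26b1 and Rarg turned without scaling.

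Scaling shifted the values of all genes by a constant, except quantile normalization, which moved each gene by its own amount. On the array filed as P69 it moved Aldh1a2 (to 4.32), Aldh1a3 (to 0.39) and Aldh1a1 (to −0.21) upward. Rara (to 0.99) and Crabp2 (to −1.34) moved downward, and the others moved less. The median change of all genes compared from P42 to the array filed as P69 was 0.15 with the 75th percentile, −0.05 with that percentile over probes well above background on all arrays, 0.30 with quantile normalization, 0.65 with the median and 1.32 without scaling. To the array filed as P55 it was 0.23, −0.16, 0.32, 0.86 and 0.52, in the same order. Over these settings, the background correction and the filters, Rara ranged from 0.93 to 2.30 on the array filed as P69 and from 1.87 to 2.96 on that filed as P55. Rarg ranged from 1.13 to 2.50 and from 1.44 to 2.37. Crabp1 stayed between −2.70 and −1.33 and between −2.34 and −1.41, and Cyp26b1 between −2.20 and −0.83 and between −2.17 and −1.23.

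**Figure D3:**
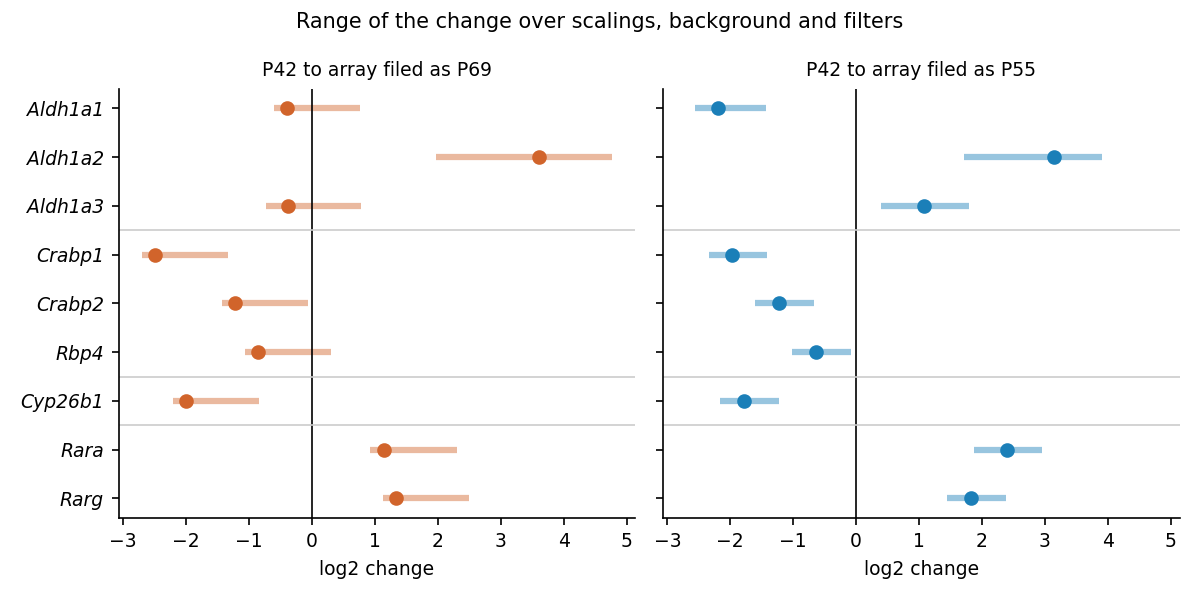
Range of the log2 change of each gene (x axis) from P42 to the array filed as P69 (left) and to the array filed as P55 (right) over 4 other scalings, another background correction and other filters, with the reported value as a point. The bars of Aldh1a2, Rara and Rarg stay right of 0 and those of Crabp1, Crabp2 and Cyp26b1 left of it in both panels. The bars of Aldh1a1, Aldh1a3 and Rbp4 cross 0 in the left panel only.

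The rest of the retinoid pathway was followed with 72 other genes on the array, listed by role. Of these, 46 were well above background on all 3 arrays and 6 on none. From P42 to the array filed as P69, 14 of 62 genes with a value were at least 2-fold higher and 12 lower (median 0.27), and to the array filed as P55, 20 of 62 were higher and 8 lower (median 0.37). These counts include 13 and 15 genes measured on 1 side only, whose values are bounds, and 21 and 14 genes changed sign under some scaling or background correction. The shares over all genes were 22.2 and 20.7% on the array filed as P69 and 29.2 and 16.9% on the array filed as P55. The medians over all genes were 0.15 and 0.23. The same shares stand beside the counts of each role below. The balance of higher and lower genes depended on the scaling. On the array filed as P69 it was 8 against 16 with the 75th percentile over probes well above background on all arrays, 7 against 10 with normexp, 17 against 5 with quantile normalization, 27 against 4 with the median and 37 against 1 without scaling. On the array filed as P55 it was 13 against 11, 11 against 3, 21 against 6, 30 against 3 and 25 against 5, in the same order.

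Among the other receptors and their coregulators, all 11 were well above background on all 3 arrays, none was 2-fold lower on a later array by its brightest probe, and 3 and 5 passed 2-fold upward on the arrays filed as P69 and P55. With the 75th percentile over probes well above background on all arrays, 1 of the 11 was 2-fold lower on each. Dimmer probes of 3 of these genes, Rarb among them, were at least 2-fold lower on 1 or both later arrays, so the count holds for the brightest probes only. Rxra, the main partner receptor of skin, had levels of 1.35, 2.96 and 1.97, with changes of 1.61 and 0.62 and the same sign under every scaling and with its second probe (1.58 and 0.87). Rxrb, a further partner, had levels of 2.00, 3.04 and 1.88, and only the array filed as P55 differed from P42 by 2-fold (1.05). Rarb, the third retinoic acid receptor and a known target of retinoic acid, was dim, with levels of −2.38, −2.91 and −2.59, and its small changes of −0.53 and −0.21 changed sign under some scalings. A second Rarb probe was well above background only at P42, with bounds of −1.05 and −2.02 for its change to the arrays filed as P55 and P69. Rxrg had changes of −0.83 and −0.92, the latter with the opposite sign without scaling. Fabp5, which can carry retinoic acid to PPARδ, had changes of 1.45 and 0.53.

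Of the 23 retinol dehydrogenases and related enzymes, 17 had a value on the array filed as P55, 8 at least 2-fold higher and 3 lower (median 0.86). On the array filed as P69, 18 had a value, 4 higher and 2 lower (median 0.57), but 3 higher and 4 lower with the percentile over probes well above background on all arrays, 10 and 2 with the median and 13 and 0 without scaling. Rdh10, the enzyme of the embryo's retinaldehyde supply, was well above background only on the array filed as P69 (level −2.15), with a bound of 2.29 above P42 that fell to 0.62 under another processing. Dhrs3, which turns retinaldehyde back into retinol and is a known target of retinoic acid, had levels of 2.49 at P42, 3.08 on the array filed as P55 and 3.46 on the array filed as P69. Dhrs7 had changes of 1.35 and 1.04 on the arrays filed as P55 and P69. Dhrs9, a retinol dehydrogenase, had −1.71 and −0.97, the latter with the opposite sign without scaling. Aldh8a1, which can act on a cis form of retinaldehyde, had −1.50 and −0.85, again turning sign without scaling on the array filed as P69.

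Of the genes of uptake and storage, 7 of 14 were at least 2-fold lower on the array filed as P69 and 1 was higher (median −0.91). Over all genes, 20.7% were lower and 22.2% higher. Without scaling 4 of 10 were 2-fold higher and none lower, and under quantile normalization 2 were lower. On the array filed as P55, 2 of 15 were higher and 1 lower (median −0.13). Of the 14 values, 5 are bounds on the array filed as P69, among them those of Stra6, the membrane receptor of RBP4 (−1.06), Lrat, which stores retinol as esters (−1.44), and Ttr, the blood partner of RBP4 (−1.10). All 5 are among the 7 lower genes. Their signals at P42 were 26.3 to 34.9, where the lowest signal called well above background was 19.1. On the array filed as P55, Stra6 was 0.79 higher than at P42, and the bounds of Lrat and Ttr were −0.47 and −0.13. Dgat1, which can also esterify retinol, had changes of −0.19 and 0.07.

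The other CYP26 genes were close to background. Cyp26a1, a known target of retinoic acid, had levels of −4.01 at P42, −4.56 on the array filed as P55, where it was not well above background, and −4.61 on the array filed as P69. Cyp26c1 was well above background only on the array filed as P69 (level −4.51), and no fold was computed for it. Of 22 other genes known to respond to retinoic acid, 19 had a value on the array filed as P69, 4 at least 2-fold higher and 4 lower (median −0.00), but 8 and 1 with the median scaling and 10 and 1 without scaling. On the array filed as P55, 20 had a value, 4 higher and 3 lower (median 0.24), and 7 and 1 with the median scaling. Rarres1, which was named for its response to retinoids, was not well above background at P42 and had bounds of 2.60 and 2.01 above P42 on the arrays filed as P55 and P69, which fell to 1.0 and 0.51 under another processing.

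**Figure D4:**
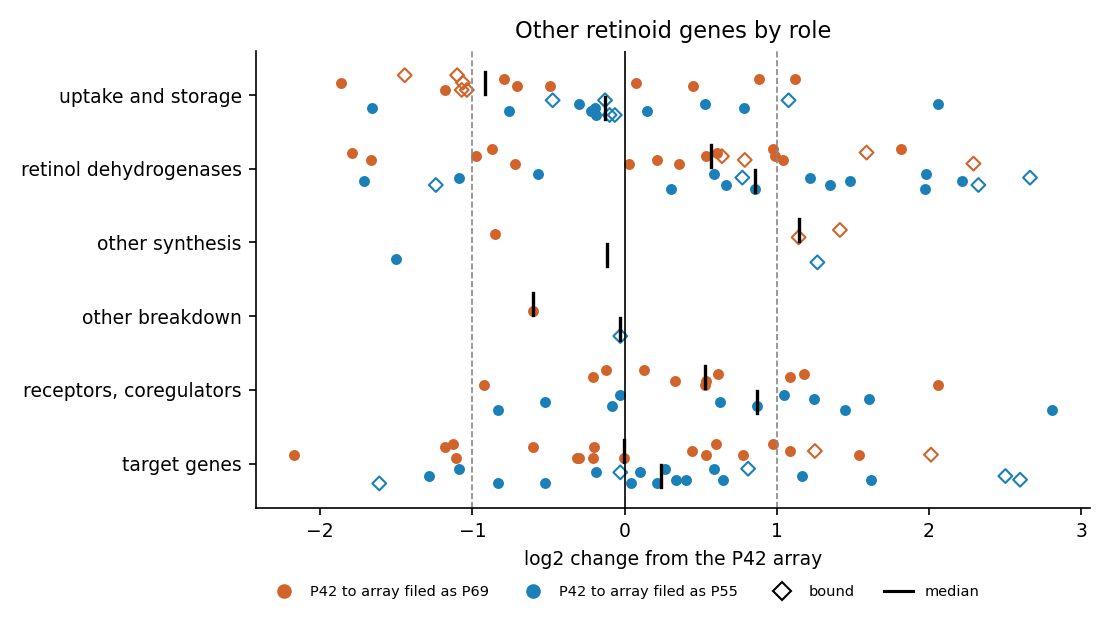
Change of the 72 other retinoid genes that have a value, as log2 difference from the P42 array (x axis), by role, with filled points for genes measured on both arrays, open diamonds for bounds, and black lines for the median of a role on each array. Genes listed under several roles are drawn in each. The receptor and coregulator group (brightest probes) has no point beyond 2-fold on the left, while 1 of its genes passes 2-fold lower with another scaling percentile, and target genes spread to both sides with medians of −0.00 and 0.24 that move with the scaling.

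Genes with a like profile were sought among the 13080 other genes well above background on all 3 arrays, by the distance between the 3 levels after each gene was centred on its own mean. For Aldh1a2 only 12 genes lay within 0.25, and the nearest were Chst10 (0.13), Ppfibp2 (0.17) and Prnp (0.18). For Aldh1a1 33 genes lay within that distance (nearest Aak1, Polk and Tmod1), and for Crabp1 35 (Ttc29, Vmn2r-ps54 and Rrp12). The profiles of Rara (nearest Dut, Nubp1 and Sdr39u1), Aldh1a3 (109 genes, Myo3b, Inca1 and Shld1) and Cyp26b1 (132, Lin28a, Boc and Vmn1r72) were more common. Those of Crabp2 (408, Sec24a, Hsf4 and Zfp933), Rarg (565, Camk1d, Tcf19 and Nrg4) and Rbp4 (602, Zfp36l1, Adgrb2 and Ptprn) were the most common. With 3 arrays, such likeness describes 3 values per gene and nothing more.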

How the data were processed

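Amplified RNA of sorted macrophages (3 littermates pooled per day) was hybridized to Agilent 8x60K mouse arrays, and images were quantified by the authors with Feature Extraction 10.7.3.1. Spot values deposited by the authors are linear intensities, corrected for background by that software and not normalized across arrays. The table deposited by the authors holds log2 values of the same arrays, whose normalization is not given in the sources used here, and served only as an alternative and to compare array assignments (9 of the 10 member probes are in it, Rbp4 is not).

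Control and outlier spots were left out, spots of a probe were averaged, and log2 signal was set against the 75th percentile of its array. Probes were named through RefSeq transcripts (GRCm38.p6 gene table; 26028 of 55618 probes), and the probe with the highest mean level stands for a gene. A gene was compared when its probe was well above background (a share of 0.5 or more of its spots) on 1 of the 2 arrays. Where this held for only 1, the change was taken against the higher of the lowest signal called well above background on the dim array and its own signal there, as a bound, with no value where that was under 1-fold. Spot error came from probes with 10 or more spots.

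With 1 array per day no test was made. The members, lists and alternatives were chosen with earlier results of these data known, and differences between members and single marker genes after the values were seen. Other retinoid genes were named when at least 4-fold different in the same direction on both later arrays, or as paralogs and partners fixed by name, and 2 of these are not reported here. Alternatives were other scalings, normexp (limma 3.58.1, offset 50), the table of the authors, exchanged later arrays, other filters and folds, outlier spots kept, and the median over probes. Simulated data with known changes were used to check the code (Python 3.11.15, pandas 2.3.3, R 4.3.3). Probe sequences were not used.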

Additional observations from a re-analysis of the deposited data

How the results depend on the processing

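The number of genes at least 2-fold higher or lower stayed within 1.5 times the reported one for 63 of the counts under the alternatives. From P42 to the array filed as P69, 1 gene was higher at 4-fold and 1 at 10-fold, and lower were 1 without normalization, 1 at 4-fold and 0 at 10-fold. From P42 to the array filed as P55, 2 genes were higher at 4-fold and 0 at 10-fold, and 1 was lower at 4-fold and 0 at 10-fold. Between the later arrays, 2 genes were higher without normalization, 2 with the table of the authors and 2 with the later arrays exchanged, and 0 with normexp, at 4-fold or at 10-fold. Lower were 1 gene with quantile normalization, 1 with the table and 1 with exchanged arrays, and 0 without normalization, at 4-fold or at 10-fold. The table and the exchange, which is the same assignment, turned Aldh1a3 from P42 to P55 to −0.39 under both, and between the later arrays Aldh1a1 to −1.79 and −1.80, Aldh1a3 to 1.47 and 1.46, and Rara to 1.26 under both. The changes turn because each array takes the day of the other. Of the remaining single changes, 179 stayed within the SD of repeated spots and 134 moved further. Of the 134, 21 crossed 0, all with a reported change under 2-fold, because turns of larger changes are those given above. Many of the 179 were fixed in advance. All 9 genes were well above background on all arrays, so the filters could not change their values. Their probes have single spots, so keeping outlier spots could change little. Only Rara has 2 probes, so the median over probes could change no other gene of the 9. It moved Rara from 1.14 to 1.29 on the array filed as P69 and from 2.40 to 2.44 on the array filed as P55. Between the later arrays Rara moved from −1.26 to −1.15. The 63 counts include such settings too. Differences between the changes of Aldh1a2 and Cyp26b1, and of either receptor and Crabp1, moved by more than 2 times the P42 spot SD in 16 cases. In 56 cases they did not, and none turned. Many of the 56 were fixed in advance, because a scaling constant cancels in a difference and the filters could not change it. The 16 came from quantile normalization, normexp, the table and the exchanged arrays. Values near background limit Aldh1a2 at P42, Aldh1a1 on the array filed as P55 (1.92 times the lowest signal called well above background) and Aldh1a3 on every array. No paired analysis was possible because each day has 1 array and no result comes from a test.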

Other observations

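Aldehyde dehydrogenases that are not known for making retinoic acid were also measured. Of 14 such genes, 5 were at least 2-fold higher with 0 lower on the array filed as P69 (median 0.76), and 9 were higher with 1 lower on the array filed as P55 (median 1.23), where 22.2 and 29.2% of all genes were higher. Over the scalings and normexp 3 to 13 were higher on the former, and 4 to 9 on the latter. Aldh4a1, which acts in proline breakdown, had levels of −1.22 at P42, 0.90 on the array filed as P55 and 0.10 on the array filed as P69. Aldh5a1, which oxidizes succinic semialdehyde, had −2.55, −0.58 and −1.04. Aldh9a1 had 2.14, 3.52 and 3.46. Aldh6a1, of valine breakdown, was the 1 gene at least 2-fold lower on the array filed as P55 (0.56 at P42 and −0.71 there). Aldh2, the mitochondrial enzyme of ethanol metabolism, differed little, with 3.17, 3.01 and 3.23. These genes were chosen for naming after their values were seen. The keratinocyte markers were higher on the same arrays (median changes of 3.09 and 3.30), and their part in these values was not tested.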
